A study of Rattus norvegicus with 20 samples.

Results

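The genes described here are 34 transcriptional targets of p53 other than Cdkn1a, the gene of the cell cycle inhibitor p21. They were taken from a list of named p53 targets without a rule on fold change. The list and the roles used below were, however, chosen with earlier results of these data known. All 34 were among the 15503 genes of the deposited table. Of the 34, 25 were found there by gene name, 8 by protein accession and 1, Rrm2b, by protein name. Their levels were compared in neonatal rat cardiomyocyte cultures treated for 72 h with PBS, with 100 nM histidine, with 1 µM doxorubicin, or with 100 nM histidine and 1 µM doxorubicin together. Each of the 4 groups had 5 libraries of polyadenylated RNA. The title of the study concerns plasma histidine and recurrent atrial fibrillation, and its design asks for the cardiac effect of histidine with and without doxorubicin. The labels do not say whether the 5 libraries of a group are separate cultures, and all p-values therefore rest on the spread between libraries, which may be technical.

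The protein p53 is a transcription factor that becomes stable and active after DNA damage, and it binds DNA as a tetramer at pairs of short half-sites. Doxorubicin is an anthracycline that intercalates into DNA and traps topoisomerase II on it, so that strand breaks form, and its use against cancer is limited by toxicity to the heart. Classical p53 targets halt the cell cycle, repair DNA, supply nucleotides, restrain metabolism and growth signals, or move the cell towards or away from death, and several of them feed back on p53 itself.

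Library totals ran from 53246205 to 83624651 reads assigned to genes, and levels are given as CPM, read counts scaled to a common library size after trimmed mean of M values (TMM) normalization. Markers of several cell types were present beside those of the labelled one. In PBS the 11 measured cardiomyocyte markers made up 0.106% of counts, against 10.6% for 10 fibroblast markers. None of the cardiomyocyte markers was at 0, but their summed level was 1002 to 1140 CPM in PBS and 173 to 283 CPM in doxorubicin, and 10 of the 11 fell. All 10 leukocyte and macrophage markers fell as well, from a sum of 1866 to 1985 CPM to a sum of 55.9 to 116 CPM. Of 7 smooth muscle and pericyte markers 6 fell and 0 rose, and of 6 endothelial markers 4 fell and 1 rose. Of 10 fibroblast markers 3 rose and 3 fell, and of 5 epithelial and mesothelial markers 1 rose and 2 fell. By the same test, described below, 21.7% of all genes rose and 21.5% fell. In bulk RNA, fewer cells of a type and less RNA per cell cannot be told apart, and the part of these shifts in the results below was not tested. Doxorubicin replicate 4 stood apart from the other 19 libraries, and for some of the genes in which it lay apart values are also given without it.

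Doxorubicin against PBS raised most of the p53 targets and lowered a smaller group. Of the 34 genes 21 rose, 7 fell and 6 did not pass edgeR's quasi-likelihood test at a Benjamini-Hochberg adjusted p under 0.05. Over all 15449 genes tested 21.7% rose and 21.5% fell. The share of risers among the p53 targets was above that of all genes, and the share of fallers was close to it. This comparison is limited by a list chosen with earlier results of these data known. The median log2 fold change was 0.64 for the 34 genes and 0.05 for all genes. In 23 of the 34 the 5 doxorubicin libraries did not overlap the 5 PBS libraries, 19 of them above and 4 below, where 31.1% of all genes did not overlap. The 4 below were Pltp, Dram1, Sesn1 and Ccnk.

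Short stretches of 7 promoters are shown because they hold the sequence that p53 is known to bind, on genes that rose and on genes that fell. The windows are RefSeq promoters of the rat assembly GRCr8, 300 bases long, with 250 bases before and 50 after the annotated start. Of the 34 genes 28 had a window, and Ak1, Ddb2, Rrm2b, Tp53inp1, Trib1 and Zmat3 had none. Each window was scanned for a pair of p53 half-sites of 10 bases each, separated by 0 to 13 bases. A pair was counted with at most 2 mismatches over its 20 positions and with the CNNG core of both half-sites kept. The half-site reads the same on both strands, so 1 strand covers both. Capitals mark the half-sites.
Aen: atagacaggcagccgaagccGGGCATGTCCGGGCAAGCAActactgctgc
Ccng1: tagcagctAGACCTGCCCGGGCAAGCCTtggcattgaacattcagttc
Gadd45a: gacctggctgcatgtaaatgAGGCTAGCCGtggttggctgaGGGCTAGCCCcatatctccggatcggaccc
Pidd1: AGCCTTGCCTaggcAGGCTTGCTT
Sertad1: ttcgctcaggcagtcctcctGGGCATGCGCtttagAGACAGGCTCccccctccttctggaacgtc
Sesn1: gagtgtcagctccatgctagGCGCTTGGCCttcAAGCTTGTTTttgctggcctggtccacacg
Ckap2: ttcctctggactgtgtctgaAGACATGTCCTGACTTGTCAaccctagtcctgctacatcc

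In GRCr8 these stretches lie at chr1:142224483-142224532 (plus strand) for Aen, chr10:25685079-25685126 (minus) for Ccng1, chr4:97486818-97486888 (minus) for Gadd45a and chr1:205971567-205971590 (minus) for Pidd1. Those of Sertad1, Sesn1 and Ckap2 lie at chr1:91903097-91903161, chr20:46948514-46948576 and chr16:76541866-76541925, all on the plus strand. The pair began 30 bases before the start in Aen, 242 in Ccng1, 69 in Gadd45a, 180 in Sertad1, 185 in Sesn1 and 228 in Ckap2, and 10 bases after the start in Pidd1. The pairs of Ccng1, Gadd45a and Pidd1 had 1 mismatch and the other 4 had 2. Such a pair was present in 7 of the 28 windows (25.0%) and in 3.53% of all 33469 RefSeq windows. With at most 1 mismatch it was present in 3 of the 28 and in 0.565% of all windows. It was found in 5 of the 17 windows of genes that rose, 2 of the 7 of genes that fell, and 0 of the 4 of genes that did not pass the test. The genes were taken from a list of named p53 targets, and such a list favours genes with p53 sites. Their shares beside those of all windows are therefore a description only, and action of p53 on these promoters was not tested. A match is a description of letters, and a window without one says nothing about binding elsewhere in the gene.

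The 10 targets with roles in cell death and survival held the largest rise of the list. Eda2r (ENSRNOG00000013018, chrX:62228229-62269268, minus strand) encodes a receptor of the tumour necrosis factor family that binds ectodysplasin. Its level in the 5 PBS libraries was 17.2, 17.7, 16.6, 16.01 and 18.2 CPM, and in the 5 doxorubicin libraries 65.7, 63.98, 62.02, 46.6 and 61.00 CPM. Every doxorubicin library was at least as high as 46.6 CPM and no PBS library exceeded 18.2 CPM. The rise was 3.49-fold (log2 1.80 ± 0.10, SE, n = 5 per group; edgeR adjusted p = 1.56e-11).

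Phlda3 (ENSRNOG00000009068, chr13:47193086-47196335, plus strand) encodes a pleckstrin homology protein that keeps the survival kinase Akt off the membrane. It stood at 223, 239, 248, 280.4 and 251 CPM in PBS and at 502, 487, 435, 1251 and 584 CPM in doxorubicin. The groups did not overlap, and the fourth doxorubicin library lay far above the other 4. The log2 rise was 1.39 ± 0.22 (SE, edgeR adjusted p = 3.74e-05), and 1.01 without that library.

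Tp53inp1 (ENSRNOG00000007964, chr5:24260568-24267968, plus strand) encodes a stress protein of apoptosis and autophagy. Its level was 19.4, 19.3, 14.1, 16.7 and 16.7 CPM in PBS and 49.6, 46.7, 39.4, 36.9 and 45.04 CPM in doxorubicin, a rise of 2.53-fold without overlap (log2 1.34 ± 0.12, SE; edgeR adjusted p = 2.15e-08). Ei24 (ENSRNOG00000030391, chr8:36494289-36510571, minus strand), a protein of the endoplasmic reticulum with roles in autophagy, was at 75.1, 67.6, 70.4, 71.7 and 67.5 CPM in PBS and at 144, 139.9, 141, 203 and 139 CPM in doxorubicin. Levels were close together in 4 of the doxorubicin libraries and higher in the fourth (log2 1.13 ± 0.088, SE; edgeR adjusted p = 2.48e-09).

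The other risers of this role were smaller in size. Aen, a nuclease that fragments DNA in apoptosis and carries a half-site pair shown above, was at 64.3 to 68.3 CPM in PBS and 119 to 136 CPM in doxorubicin with a narrow spread in both groups (log2 0.96 ± 0.051). Pidd1, the scaffold of a caspase-activating complex, was at 11.1 to 15.6 CPM in PBS and 19.03 to 28.3 CPM in doxorubicin. Triap1, a small mitochondrial protein that restrains apoptosis, rested largely on 1 library. It was at 14.6, 11.3, 14.5, 14.4 and 14.4 CPM in PBS and at 17.6, 16.3, 16.4, 43.02 and 17.9 CPM in doxorubicin, and its log2 rise of 0.69 ± 0.21 came to 0.30 without the fourth library, where it still passed the test. Fitted with the PBS and doxorubicin libraries alone, Triap1 did not pass (edgeR adjusted p = 0.0652).

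Not all death genes moved up. Apaf1, the core of the apoptosome, was at 43.8 to 51.4 CPM in PBS and 32.7 to 46.1 CPM in doxorubicin and did not pass the test (log2 -0.18 ± 0.089). Perp, a membrane protein of desmosomes and apoptosis, was at 1.29 to 1.91 CPM in PBS and 1.23 to 1.72 CPM in doxorubicin and did not pass either. Dram1, described below, fell.

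**Figure D1:**
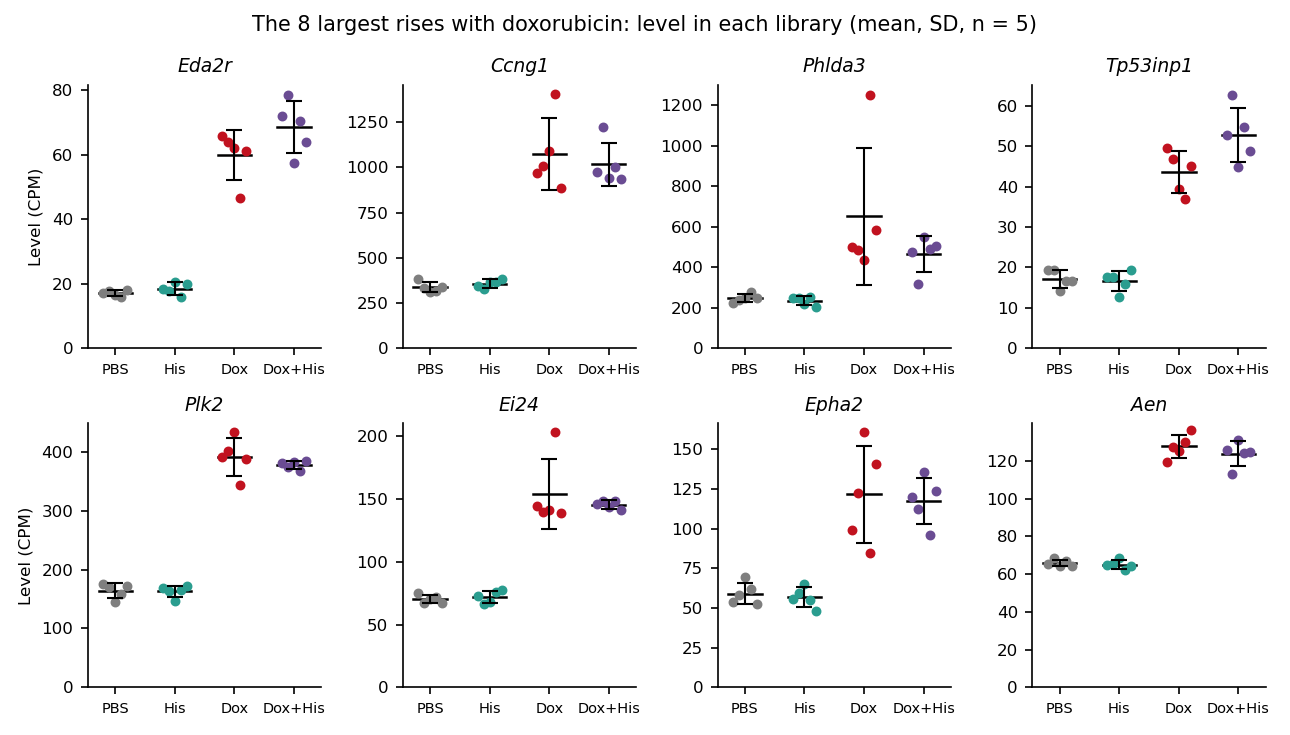
Level in CPM (vertical axes, starting at 0) of the 8 genes with the largest rises in doxorubicin against PBS, in each library of the PBS, histidine (His), doxorubicin (Dox) and combined (Dox+His) groups. Points are libraries, the black line is the mean and the bar the SD (n = 5); in all 8 panels the doxorubicin points lie above the PBS points, and in Phlda3 and Ei24 a single doxorubicin point lies far above the other 4.

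Of the 7 targets tied to cell cycle arrest 6 rose, where 21.7% of all genes rose. Counts within roles of so few genes are given as a description only. Ccng1 (ENSRNOG00000003256, chr10:25176234-25181641, minus strand) encodes cyclin G1, an atypical cyclin that acts with a phosphatase on the p53 regulator Mdm2. It stood at 381, 336, 313, 318 and 340.4 CPM in PBS and at 966, 1008, 1089, 1402 and 888 CPM in doxorubicin. The 2 groups were far apart, and the rise was 3.17-fold (log2 1.67 ± 0.11, SE; edgeR adjusted p = 1.41e-10). Its relative Ccng2, cyclin G2, rose less (log2 0.70 ± 0.13). Ccng2 was at 38.5, 33.5, 39.7, 33.96 and 30.99 CPM in PBS and 49.3, 55.3, 55.4, 81.7 and 45.4 CPM in doxorubicin, with the fourth library again highest and a log2 rise of 0.54 without it.

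The polo-like kinases of the list moved in opposite directions. Plk2 (ENSRNOG00000011951, chr2:41969176-41974947, plus strand), a stress-responsive kinase, was at 175, 170.5, 145, 159 and 172 CPM in PBS and at 391, 402, 433, 343 and 387 CPM in doxorubicin, and rose 2.38-fold (log2 1.25 ± 0.066, SE; edgeR adjusted p = 8.25e-12). Plk3 (ENSRNOG00000018484, chr5:130607142-130612317, minus strand) was at 17.4, 15.9, 17.8, 15.1 and 16.4 CPM in PBS and at 14.6, 11.6, 12.01, 12.7 and 16.9 CPM in doxorubicin. Its groups overlapped, since the fifth doxorubicin library reached the PBS range, and its fall was small (log2 -0.28 ± 0.095, SE; edgeR adjusted p = 0.0214). The call of Plk3 was lost when PBS replicate 3, doxorubicin replicate 2 or doxorubicin replicate 3 was left out (edgeR adjusted p = 0.0536 to 0.0612) and with limma on log2(FPKM + 1) (0.0514).

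Btg2, an antiproliferative protein that recruits the deadenylase complex, rose, with 35.9 to 38.7 CPM in PBS and 57.4 to 75.6 CPM in doxorubicin (log2 0.87 ± 0.072). Gadd45a, the growth arrest and DNA damage gene with a half-site pair near its start, rose, with 29.4 to 34.5 CPM in PBS and 45.3 to 80.5 CPM in doxorubicin (log2 0.84 ± 0.12, and 0.68 without the fourth doxorubicin library). Zmat3, an RNA-binding zinc finger protein that acts on splicing, rose, with 109 to 129.7 CPM in PBS and 118 to 211 CPM in doxorubicin (log2 0.63 ± 0.11). In Zmat3 the groups overlapped through the fourth library alone, at 118 CPM, while the other 4 were at 187 to 211 CPM.

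Among the 5 genes of DNA repair and nucleotide supply 3 rose, beside 21.7% of all genes. Rrm2b, the p53-inducible subunit of ribonucleotide reductase, was at 11.8 to 16.4 CPM in PBS and 17.2 to 22.6 CPM in doxorubicin (log2 0.65 ± 0.10). Ercc5, the endonuclease XPG of nucleotide excision repair, was at 11.6 to 14.5 CPM in PBS and 16.2 to 22.4 CPM in doxorubicin (log2 0.47 ± 0.11), and Xpc, which recognises the lesion in that pathway, was at 24.6 to 26.7 CPM and 29.6 to 35.4 CPM (log2 0.37 ± 0.065). In all 3 the groups did not overlap. Ddb2, the sensor of ultraviolet lesions, and Polk, a translesion polymerase, did not pass the test. Ddb2 was at 4.19 to 5.18 CPM in PBS and 2.44 to 4.87 in doxorubicin, and Polk at 8.20 to 11.5 and 5.10 to 10.03 CPM. Polk passed as lower once doxorubicin replicate 1 was left out (log2 fold change -0.37, edgeR adjusted p = 0.0448).

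The 6 genes of metabolism and redox divided. Sesn2 (ENSRNOG00000042785, chr5:144701530-144721260, minus strand), a sestrin that restrains mTOR signalling, was at 62.4, 82.1, 71.7, 68.05 and 96.4 CPM in PBS and at 111, 113, 118, 118 and 143 CPM in doxorubicin, and rose (log2 0.66 ± 0.11, SE; edgeR adjusted p = 5.21e-05). Its relative Sesn1 (ENSRNOG00000000302, chr20:45294871-45387697, plus strand) was at 19.8, 18.95, 17.01, 18.9 and 20.4 CPM in PBS and at 11.7, 13.5, 12.9, 9.59 and 11.4 CPM in doxorubicin, and fell (log2 -0.69 ± 0.11, SE; edgeR adjusted p = 4.75e-05). The groups did not overlap in either sestrin, so the direction differed between the relatives in every library. Ak1, an adenylate kinase of energy balance, rose, with 33.7 to 44.8 CPM in PBS and 61.5 to 93.4 CPM in doxorubicin (log2 0.95 ± 0.12). Tigar, a phosphatase that lowers glycolytic flux, rose, with 13.1 to 15.4 CPM in PBS and 14.6 to 22.3 CPM in doxorubicin, with the groups overlapping through the fourth doxorubicin library. Fdxr, the mitochondrial ferredoxin reductase, was at 7.32, 7.48, 5.37, 6.34 and 6.98 CPM in PBS and 4.57, 3.38, 3.64, 7.46 and 5.84 CPM in doxorubicin. It did not pass the test (log2 -0.43 ± 0.19, SE; edgeR adjusted p = 0.0791), but fell without doxorubicin replicate 4 (log2 fold change -0.62, edgeR adjusted p = 0.00622).

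**Figure D2:**
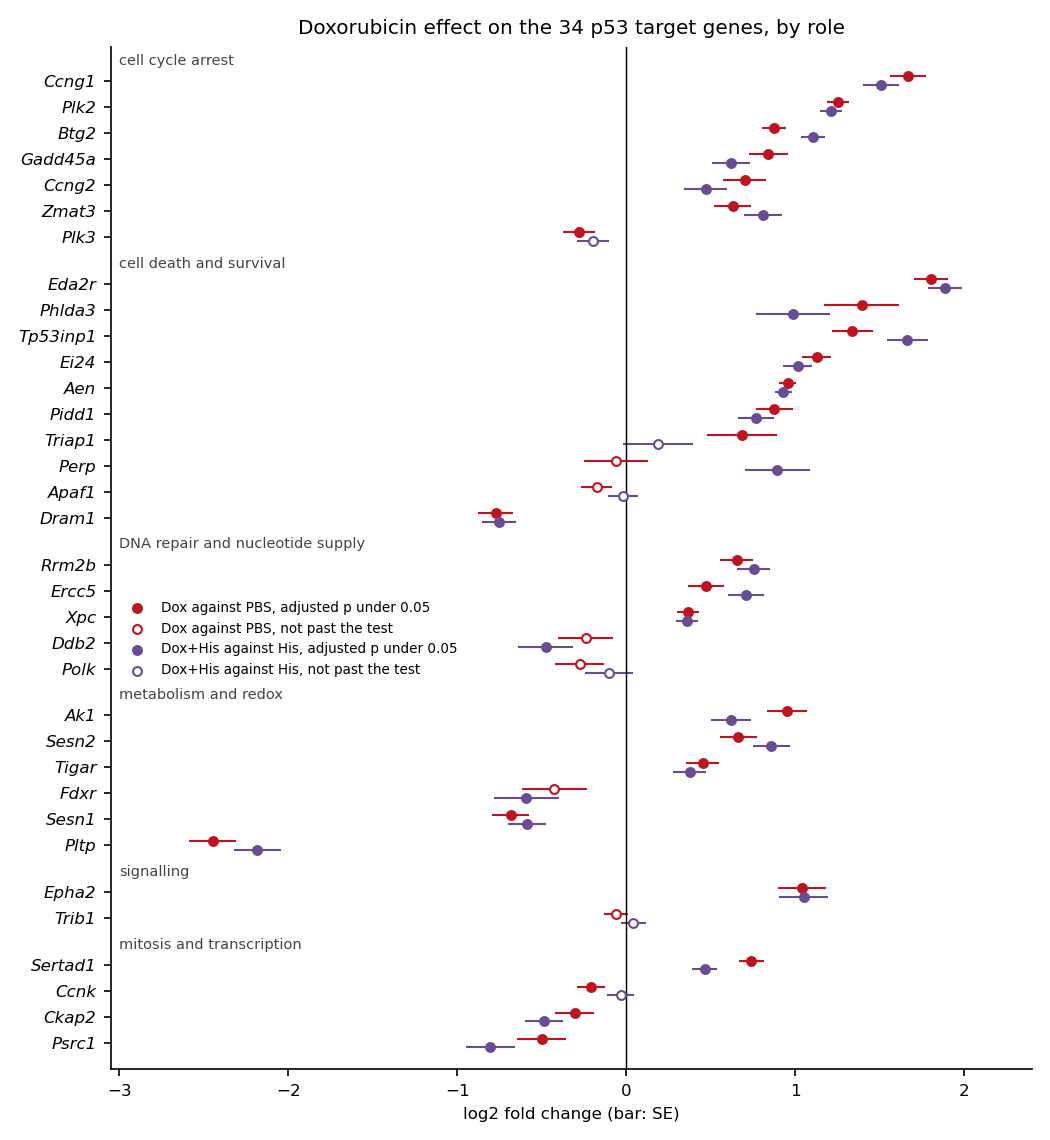
Log2 fold change (horizontal axis, bar: SE) of each of the 34 genes, grouped by role, for doxorubicin against PBS (Dox against PBS) and for both compounds against histidine (Dox+His against His). Filled points passed the test; 21 genes lie to the right and 7 to the left with filled points in each comparison, with Pltp farthest left and Eda2r farthest right.

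Of the 2 signalling genes, the receptor tyrosine kinase Epha2 (ENSRNOG00000009222, chr5:153605644-153634117, plus strand) rose. It was at 53.8, 58.2, 69.4, 61.8 and 52.4 CPM in PBS and at 98.9, 122, 160.5, 84.4 and 141 CPM in doxorubicin, with wide scatter in the treated group but no overlap (log2 1.04 ± 0.14, SE; edgeR adjusted p = 6.71e-06). Trib1, a pseudokinase scaffold of protein degradation, was at 53.6 to 70.3 and 53.6 to 62.1 CPM and did not pass the test.

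The deepest fall was in Pltp (ENSRNOG00000016488, chr3:153574825-153592647, minus strand), the phospholipid transfer protein of plasma lipoproteins, which is also made by macrophages. It was at 180.5, 172, 146, 160.2 and 173 CPM in PBS and at 32.1, 27.8, 19.8, 42.02 and 30.6 CPM in doxorubicin. Every doxorubicin library was below 146 CPM, the lowest PBS library, by a wide margin, and the level fell 5.46-fold (log2 -2.45 ± 0.14, SE; edgeR adjusted p = 2.81e-11). Dram1 (ENSRNOG00000038916, chr7:22742849-22776765, minus strand), a lysosomal membrane protein that promotes autophagy, was at 43.4, 40.7, 44.7, 42.02 and 39.1 CPM in PBS and at 26.8, 22.9, 21.3, 28.8 and 23.1 CPM in doxorubicin (log2 -0.77 ± 0.10, SE; edgeR adjusted p = 3.87e-06). The groups did not overlap. Summed macrophage and leukocyte markers moved with both genes, as did summed cardiomyocyte markers, as given above. Smooth muscle and pericyte markers did so too, with a mean sum of 7426 CPM in PBS and 3930 CPM in doxorubicin. The sums of fibroblast, epithelial and mesothelial, and endothelial markers also had lower means in doxorubicin, the endothelial sum with overlapping groups. The part of any cell type in these falls was not tested.

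The remaining fallers belong to mitosis and transcription, and their falls were small. Psrc1 (ENSRNOG00000020013, chr2:196022361-196026874, plus strand), a microtubule protein of the spindle, was at 6.41, 6.02, 7.79, 8.98 and 6.39 CPM in PBS and at 4.17, 4.95, 4.31, 6.61 and 5.08 CPM in doxorubicin (log2 -0.50 ± 0.14, SE; edgeR adjusted p = 0.00753), with overlap through the fourth doxorubicin library. Ckap2 (ENSRNOG00000024650, chr16:69839630-69864913, plus strand), a cytoskeleton protein of the mitotic spindle, was at 57.7, 55.9, 55.6, 58.6 and 57.1 CPM in PBS and at 40.1, 44.95, 64.6, 35.6 and 45.1 CPM in doxorubicin. Doxorubicin replicate 3 lay above all PBS libraries and the other 4 lay below them (log2 -0.31 ± 0.11, SE; edgeR adjusted p = 0.0356). A row on chr1:167210874-167213149 carries the same protein accession as Ckap2, so reads may be split between near-identical copies and both values are uncertain; that row had a log2 fold change of -0.24 and did not pass. Ccnk (ENSRNOG00000006985, chr6:127090569-127113191, plus strand), the cyclin partner of kinases that phosphorylate RNA polymerase II, was at 28.4, 31.7, 28.3, 32.3 and 28.9 CPM in PBS and at 27.9, 27.9, 26.2, 19.4 and 27.8 CPM in doxorubicin (log2 -0.21 ± 0.082, SE; edgeR adjusted p = 0.0449). The Ccnk groups were adjacent without overlap, and the fourth library was lowest. Without doxorubicin replicate 4 neither passed, with a log2 fold change of -0.23 for Ckap2 (edgeR adjusted p = 0.084) and of -0.12 for Ccnk (0.0578). Leaving out PBS replicate 1, 2, 4 or 5 or doxorubicin replicate 1, 2 or 5 also ended the Ckap2 call (edgeR adjusted p = 0.0525 to 0.0839), and leaving out PBS replicate 2, 4 or 5 or doxorubicin replicate 3 ended that of Ccnk (0.0559 to 0.108). Neither passed with limma on log2(FPKM + 1) (adjusted p = 0.0806 for Ckap2 and 0.185 for Ccnk). In the same comparison all 22 genes of a list of mitotic regulators fell, with a median log2 fold change of -3.07; Bub1, a spindle checkpoint kinase, was at -3.07 and Ccnb1, the mitotic cyclin, at -3.56. Sertad1, a transcriptional co-regulator placed in the same role, rose, with 22.1 to 24.9 CPM in PBS and 34.5 to 46.99 CPM in doxorubicin (log2 0.74 ± 0.073).

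**Figure D3:**
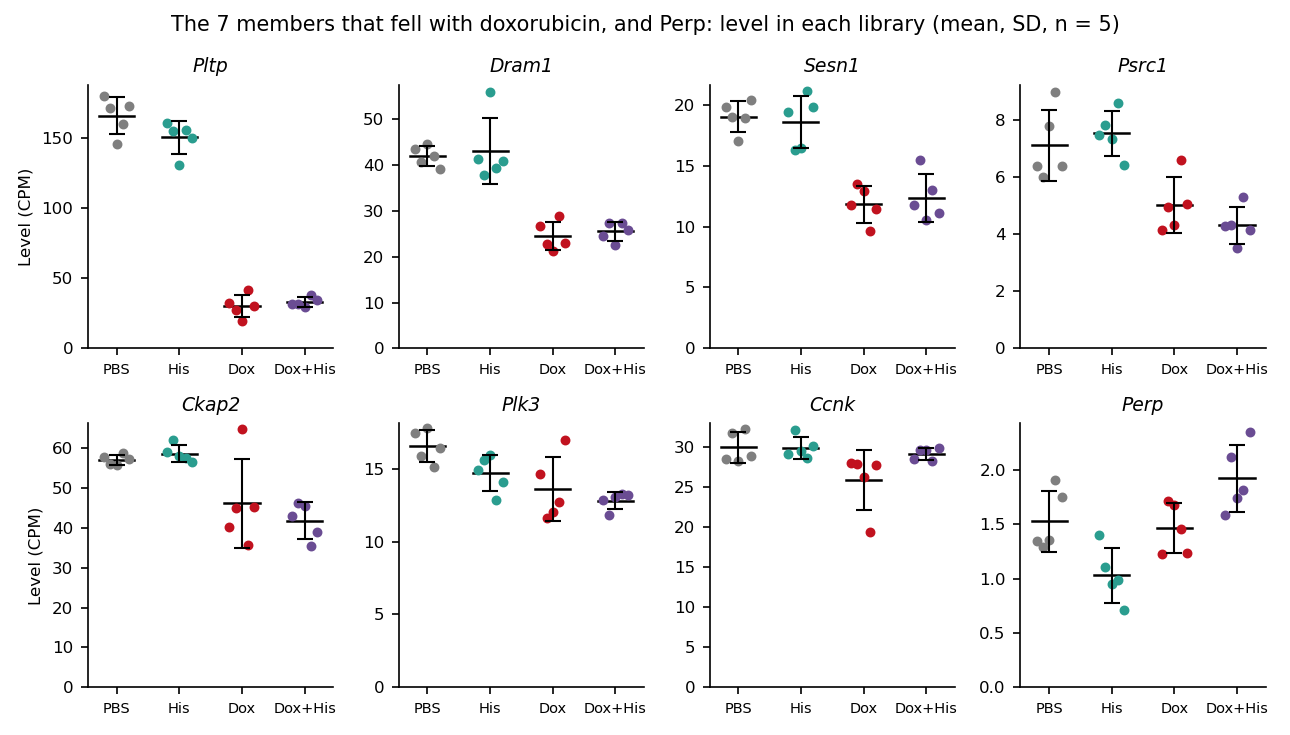
Level in CPM (vertical axes, starting at 0) of the 7 genes that fell in doxorubicin against PBS, and of Perp, in each library of the 4 groups. Points are libraries, the black line is the mean and the bar the SD (n = 5); Pltp, Dram1 and Sesn1 are lower in all 10 doxorubicin-treated libraries than in all 10 others, while the Psrc1, Ckap2, Plk3 and Perp groups overlap or nearly touch.

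Per gene length, in the deposited FPKM (fragments scaled by gene length and library size), the order of levels changed with the drug. In PBS the highest were Phlda3 at 143 ± 11.2 FPKM, Ccng1 at 102 ± 8.59, Pltp at 74.9 ± 6.20 and Plk2 at 53.8 ± 4.18 (SD, n = 5), each apart from the next by more than their SDs. Aen (25.1 ± 0.634 FPKM), Sesn2 (24.9 ± 2.49) and Trib1 (24.5 ± 2.57) followed Ei24 (30.6 ± 1.46) and did not differ beyond their spread. The lowest was Perp at 0.742 ± 0.135 FPKM. In doxorubicin Phlda3 was at 378 ± 166 FPKM and Ccng1 at 334 ± 44.6, which overlap within their SDs, and Plk2 was the third at 133 ± 17.8. The doxorubicin means and ranks include replicate 4, where Phlda3 was at 1251 CPM, against 435 to 584 CPM in the rest of its group. Pltp moved from rank 3 to rank 19 of the 34, and Eda2r from rank 24 to rank 15.

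With histidine present in both arms, doxorubicin again raised more of the 34 genes than it lowered. For both compounds against histidine alone 21 of the 34 rose and 7 fell (edgeR), where 19.9% of all genes rose and 20.3% fell. The groups did not overlap in 27 of the 34, 21 above and 6 below, against 35.2% of all genes. The median log2 fold change was 0.54 for the 34 genes and 0.01 for all genes. Across the comparisons with and without histidine, which share no library, 20 genes rose in both, 5 fell in both and 3 passed in neither. The sign was the same in 32 of 34. The shares of all genes with such agreement are not given here, so these counts are a description and no result particular to the 34. Eda2r was again the largest riser, from 18.5, 17.8, 20.7, 15.9 and 19.9 CPM in histidine to 71.9, 78.6, 57.5, 70.4 and 64.03 CPM with both compounds (log2 1.88 ± 0.10, SE; edgeR adjusted p = 7.83e-12). Pltp was again the deepest faller, from 161, 156, 131, 156 and 151 CPM to 31.7, 31.6, 29.5, 38.4 and 34.9 CPM (log2 -2.18 ± 0.14, SE; edgeR adjusted p = 1.21e-10).

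Tp53inp1 had its highest mean of the 4 groups with both compounds, at 52.7, 62.7, 44.9, 54.8 and 48.9 CPM, against 17.6, 17.7, 12.7, 15.98 and 19.4 CPM in histidine alone (log2 1.66 ± 0.12). Ccng1 was at 327 to 384 CPM in histidine and 938 to 1223 CPM with both (log2 1.51 ± 0.11), Plk2 at 147 to 171 and 366 to 384 CPM (log2 1.21 ± 0.066), and Ei24 at 66.7 to 77.5 and 141 to 149 CPM (log2 1.01 ± 0.088). In none of these did the groups overlap. Sesn1 and Dram1 also fell with histidine present (log2 -0.59 ± 0.11 and -0.75 ± 0.10), as did Psrc1 (-0.81 ± 0.14) and Ckap2 (-0.49 ± 0.11).

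Plk3, Ccnk and Triap1 passed the test in doxorubicin against PBS but not in both compounds against histidine, and Perp, Fdxr and Ddb2 the other way round. None of the 6 passed the test of the difference itself, the interaction (edgeR adjusted p = 0.631 to 0.848). Perp rose with both compounds against histidine, from 1.40, 1.11, 0.952, 0.990 and 0.712 CPM to 1.59, 2.12, 1.75, 1.82 and 2.35 CPM, without overlap (log2 0.89 ± 0.19, SE; edgeR adjusted p = 9.12e-04). Fdxr was at 4.55 to 6.96 CPM in histidine and 3.32 to 4.83 CPM in the combined group (log2 -0.59 ± 0.19, edgeR adjusted p = 0.0187). Ddb2 was at 4.89 to 5.96 CPM in histidine and 3.01 to 4.57 CPM in the combined group (log2 -0.48 ± 0.16, edgeR adjusted p = 0.0244), and did not pass without histidine replicate 5, or without replicate 2 or 5 of the combined group (edgeR adjusted p = 0.0582, 0.0655 and 0.0692).

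For histidine alone against PBS, 0 of the 34 genes passed edgeR's test, and 0 passed with DESeq2 or limma. At an unadjusted p under 0.05 there were 2 of the 34, against 312 of all genes (2.02%). Calls over all genes were 0.0%. The groups did not overlap in 2 of the 34, against 0.841% of all genes. Those 2 were Btg2, at 38.6, 38.3, 37.1, 38.7 and 35.9 CPM in PBS and 32.5, 33.4, 33.6, 31.3 and 30.2 CPM in histidine, and Tigar, at 15.4, 13.5, 14.98, 13.1 and 13.6 CPM in PBS and 12.4, 11.6, 12.5, 12.9 and 13.1 CPM in histidine. The histidine libraries lay below the PBS libraries in both. The log2 fold change was -0.23 ± 0.071 for Btg2 and -0.17 ± 0.10 for Tigar (SE; edgeR adjusted p = 1 for each). Btg2 and Perp were the 2 genes at an unadjusted p under 0.05, and Perp had a log2 fold change of -0.56 ± 0.19. Btg2 is also an immediate-early gene, and the summed level of 14 other immediate-early genes was 778 ± 28.8 CPM in PBS and 664 ± 29.9 CPM in histidine (SD, n = 5), with 0 of the 14 past edgeR's test. Over the 34 genes the log2 fold changes of histidine against PBS ran from -0.56 to 0.20, with standard errors of 0.051 to 0.22.

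For histidine added to doxorubicin, against doxorubicin alone, 0 of the 34 passed with edgeR, DESeq2 or limma, and calls over all genes were 0.0% by edgeR. At an unadjusted p under 0.05 there were 7 of the 34 and 1940 of all genes (12.6%). The groups did not overlap in 1 of the 34, Ccnk, which was higher with both compounds (28.5, 29.5, 29.6, 28.2 and 29.9 CPM, against the doxorubicin values given above), and in 1.06% of all genes. The 7 were Ak1 (log2 -0.41 ± 0.12), Triap1 (-0.48 ± 0.21), Phlda3 (-0.48 ± 0.22), Tigar (-0.25 ± 0.10), Ccnk (0.17 ± 0.082), Ercc5 (0.23 ± 0.10) and Tp53inp1 (0.28 ± 0.12). Their edgeR adjusted p ran from 0.393 to 0.398. Without doxorubicin replicate 4 the values of Triap1 and Phlda3 came to -0.10 each and that of Ccnk to 0.09, while Ak1 was at -0.30 and Tp53inp1 at 0.22. Phlda3 with both compounds was at 474, 318, 549.8, 493 and 508 CPM, with 1 library below the range of doxorubicin alone and 4 within it.

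The interaction of histidine and doxorubicin, which asks whether the drug effect differed with histidine, was past edgeR's test for none of the 34 and for 0.0% of all genes, and for none of the 34 by DESeq2 or limma. At an unadjusted p under 0.05 there were 3 of the 34 and 1060 of all genes (6.86%). They were Perp (log2 0.95 ± 0.27), Sertad1 (-0.27 ± 0.10) and Btg2 (0.23 ± 0.10), each with an edgeR adjusted p of 0.631. For Perp the mean was 1.53 ± 0.280 CPM in PBS, 1.03 ± 0.252 in histidine, 1.46 ± 0.232 in doxorubicin and 1.92 ± 0.305 with both (SD, n = 5).

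**Figure D4:**
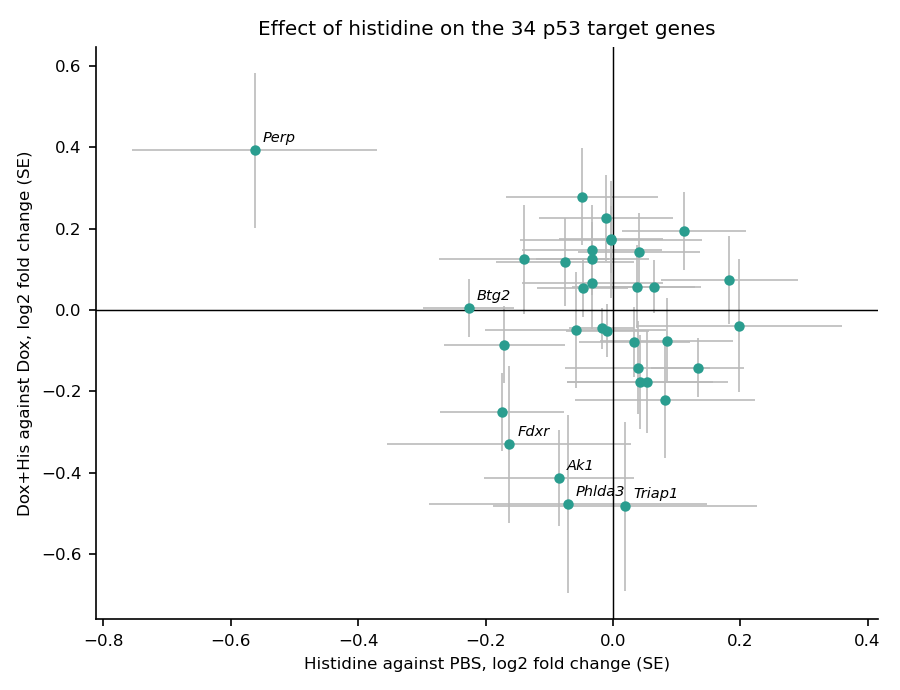
Log2 fold change of histidine against PBS (horizontal axis) and of both compounds against doxorubicin (vertical axis) for the 34 genes, with SE bars. No gene passed the test on either axis; Perp lies at -0.56 and 0.39, and Triap1, Phlda3 and Ak1 have the lowest vertical values, at -0.48, -0.48 and -0.41.

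Doxorubicin replicate 4 gave the highest value of its group in 13 of the 34 genes, the lowest in 17 and a middle value in 4. The gene length implied by the deposited reads and FPKM had a median of 2154 bases in the 13 and of 2993 bases in the 17. Across the 34 genes, which share this library and are no independent replicates, the Spearman correlation of that length with the log2 ratio of the library to the other 4 was -0.64, and across 13619 genes it was -0.58. For doxorubicin replicate 3 against its other 4, replicate 4 among them, the same correlation across the 34 genes was 0.68. Because replicate 4 is part of the mean that replicate 3 was divided by, its own shift enters that value. Whether replicate 3 has a length-related shift of its own cannot be told from it. The sum of deposited FPKM was 517265 in replicate 4 and 373417 to 398545 in the other 19 libraries. All 21 rises in doxorubicin against PBS passed without replicate 4, and also without replicates 3 and 4 together, an alternative chosen after seeing the data. The part of library quality in the levels of single genes was not tested.

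**Figure D5:**
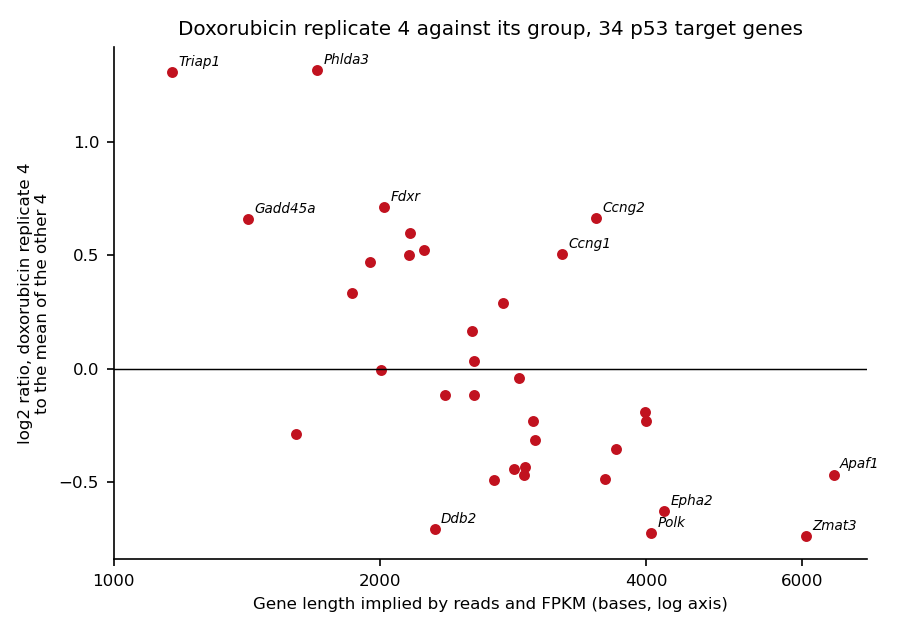
Log2 ratio of doxorubicin replicate 4 to the mean of the other 4 doxorubicin libraries (vertical axis) against the gene length implied by reads and FPKM in bases (horizontal log axis), 1 point for each of the 34 genes. Points above 0 lie mostly at short lengths, led by Triap1 and Phlda3, and points below 0 at longer lengths, as with Zmat3 and Polk.

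Other genes of the p53 pathway were measured in doxorubicin against PBS as well. Cdkn1a was at 146 to 176 CPM in PBS and 952 to 1421 CPM in doxorubicin, and Mdm2, the ubiquitin ligase that removes p53, was at 108 to 118 CPM and 459.7 to 544 CPM (log2 2.14 ± 0.32). The checkpoint kinases Chek1, Chek2 and Atm fell (log2 -1.09, -0.99 and -0.64).

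Of 36 further p53 targets outside the 34, 17 rose and 6 fell, with a median log2 fold change of 0.34, where 21.7% of all genes rose and 21.5% fell, so the share of fallers was near that of all genes. Among those with the smallest p were Gdf15, a stress cytokine (log2 3.20 ± 0.15), Ephx1, an epoxide hydrolase (2.61 ± 0.13), Cpt1c, a brain-type member of the carnitine palmitoyltransferases (1.15 ± 0.064), Abhd4, a lipase (1.38 ± 0.084) and Ier5 (1.31 ± 0.083). With histidine present, 18 of the 36 rose and 6 fell, where 19.9% and 20.3% of all genes did. Sesn2 and Gadd45a are also known targets of the stress factor ATF4, and of 10 ATF4 genes 1 rose and 3 fell in doxorubicin against PBS. Of the 14 immediate-early genes 3 rose and 6 fell, with Atf3 (log2 -3.21) and Jun (-0.95) among those that fell. Both lists are short, and beside the 21.7% and 21.5% of all genes these counts are given as a description only.

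The library protocol in the labels describes no step that marks the strand, so reads of a gene and of an overlapping antisense gene cannot be told apart, and reads shared by close relatives such as the sestrins or cyclins G may have been split by the counting.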

How the data were processed

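RNA from 20 libraries of neonatal rat cardiomyocyte cultures, 5 in each of 4 groups taken from the sample titles, was measured by sequencing of polyadenylated RNA. The authors deposited 1 table of read counts and FPKM per gene and library, per the file headers. Reads were trimmed with Trimmomatic and the genome build was mRatBN7.2, per the submitters' processing notes. For aligner, read counter and annotation, names were not given in the sources used here. FPKM are the authors' deposited values and were used only to compare levels between genes and in alternatives. The 34 genes, their roles and the other lists were chosen with earlier results of these data known.

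Counts were fitted for all genes at once with edgeR 4.0.16 in R 4.3.3: TMM scaling, edgeR's default filter on low counts (15449 genes kept, 54 removed, all 34 members kept), 1 mean per group over all 20 libraries, the quasi-likelihood F test and Benjamini-Hochberg adjustment over all genes tested, with a threshold of 0.05. Levels are TMM-scaled CPM. Library totals of 53246205 to 83624651 reads set the counting error, and its size beside the spread between libraries was not worked out for single genes. In all 40 pairs of libraries of the same group the chi-square over its degrees of freedom was 34.9 to 649, far above sampling noise, so none was counted as a copy. By rule, values in every library are given for the 8 largest changes without overlap, all that fell and the pairs of relatives; those of Triap1, Fdxr, Btg2, Tigar and Perp were added after their values were seen; from other lists at most 6 genes with the smallest p are named, and some genes are not reported here. Alternatives were RLE size factors, DESeq2 1.42.0, 2 other filters, only the groups compared, a replicate block, limma 3.58.1 on log2(FPKM + 1) and log2(FPKM + 0.1), and each library left out. The code was tested on simulated data. Promoter windows come from RefSeq, assembly GRCr8, and coordinates of genes from the deposited table. Means carry the SD and log2 fold changes the SE.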

Additional observations from a re-analysis of the deposited data

Results flagged for a closer look

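In 17 of 136 groups of 5 libraries (34 genes, 4 groups) 1 library lay far from the other 4 by Dixon's criterion (a gap to its neighbour over 0.71 of the range). Chance gives about 1 in 20. Of the 17, 9 fell on doxorubicin replicate 4. In that library Phlda3 was at 1251 CPM, against 435 to 584 in the other 4, Ei24 at 203 (139 to 144), Ccng2 at 81.7 (45.4 to 55.4), Gadd45a at 80.5 (45.3 to 54.9) and Triap1 at 43.0 (16.3 to 17.9). Zmat3 was low in it at 118 CPM (187 to 211), as were Eda2r at 46.6 (61.0 to 65.7), Apaf1 at 32.7 (44.5 to 46.1) and Ccnk at 19.4 (26.2 to 27.9). The report gives gene length beside these values.

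The other 8 were spread over 6 libraries. With both compounds, replicate 2 was high in Ccng1 at 1223 CPM (938 to 1004 in the other 4) and low in Gadd45a at 42.9 (51.2 to 52.7) and in Plk3 at 11.8 (12.8 to 13.2). Sesn2 was high in doxorubicin replicate 5 at 143.2 CPM (111 to 118) and Dram1 in histidine replicate 3 at 55.9 (37.9 to 41.3). In PBS, Rrm2b was high in replicate 1 at 16.4 CPM (11.8 to 12.7), Ak1 in replicate 3 at 44.8 (33.7 to 36.0), and Triap1 low in replicate 2 at 11.3 (14.4 to 14.6).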

How the results depend on the processing

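No gene of the 34 changed direction while called under any alternative, and all 34 kept their call in every comparison with DESeq2 and without a filter. In doxorubicin against PBS 21 rises held when any library was left out (21 to 21), and the 7 falls came to 5 to 7, to 4 with only the groups compared and to 4 with limma on log2(FPKM + 0.1). In both compounds against histidine leaving out a library gave 21 to 21 rises and 6 to 7 falls. Over all genes leaving out a library gave 6028 to 7298 calls for doxorubicin against PBS, 5660 to 6030 for both compounds against histidine, 0 to 1 for histidine against PBS, 0 to 6 for both compounds against doxorubicin and 0 to 2 for the interaction, with 0 to 0 of the 34 in the last 3. DESeq2 called 5, 20 and 15 genes in those 3, limma on log2(FPKM + 1) called 1 for histidine against PBS, and leaving out doxorubicin replicates 3 and 4 together, chosen after seeing the data, called 2 for both compounds against doxorubicin; none was among the 34. Deviations of same-numbered libraries had correlations of -0.077 to 0.193 over 30 pairs (median 0.014, 2 over 0.1). Those of differently numbered libraries ran from -0.107 to 0.079 over 120 pairs (median 0.0007, 0 over 0.1). A weak link between some same-numbered libraries is therefore possible. The labels do not say that the numbers are pairs, so the main fit did not use them and a replicate block was an alternative. With a replicate block 21 of the 34 rose and 8 fell in doxorubicin against PBS (Fdxr added, adjusted p = 0.0378), 21 rose and 7 fell in both compounds against histidine, and 0 passed in the other comparisons; the cause was not tested. Depth limits Perp most, the least counted of the 34, with a mean of 1.03 ± 0.252 CPM in histidine (SD, n = 5).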
